A study of Mus musculus with 14 samples.

Results

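Col5a3, Akap12, Lrrc10b, Myzap, Tmem132e, Nyx, Sertad4, Adamts7 and Prss23 are 9 genes that were nearly lost from 4 RNA-seq libraries of bone marrow cultures of diabetic origin (D), relative to 4 libraries of cultures of healthy origin (M). They were chosen by their log2 fold changes as the largest decreases of that comparison, so their D and M values are given as a description, with no test. The table held 17890 genes, of which 12839 had enough counts to be tested. All 9 passed the filter on low counts, and for the 6 that averaged under 1 CPM (a gene's counts scaled to the size of its library) in the D libraries it was the M libraries that carried them past it. Marrow came from male mice of the inbred strain C57BL/6J, aged 8 weeks at the start. The diabetic group was injected intraperitoneally on 5 days with 42 to 45 mg/kg of streptozotocin, which destroys pancreatic beta cells, each time after a 12 h fast. Those with a nonfasted blood glucose above 16.9 mmol/L 1 week after the last dose counted as diabetic and stayed hyperglycaemic for 6 weeks, while the healthy group served as control. What the healthy mice received in place of streptozotocin was not given in the sources used here. Marrow progenitors of both groups were then grown for 7 days with M-CSF, the growth factor that drives macrophage formation, in medium of 5 mmol/L glucose, so both groups shared the same glucose in culture. D was read as the initial of diabetic. M is not explained by any label and was assigned to the healthy mice as the group that remained, so if the letters had the opposite meaning each direction given here would be inverted. A second phase of the study, with 3 samples called diabetic-trained and 3 called untrained, was not analysed here.

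The 9 genes come from unrelated families and none of them is a textbook macrophage gene. Col5a3 and Adamts7 act in the extracellular matrix, Akap12 organises kinase signalling at the cell membrane, Myzap sits at cell junctions, Tmem132e and Nyx are known from sensory cells, and Prss23 is a secreted protease. M-CSF cultures of whole marrow turn progenitors into macrophages while other marrow cells, such as B-cell precursors, neutrophil precursors and megakaryocytes, are lost at their own pace. In bulk RNA of such a mixture, fewer cells of a type and less RNA per cell cannot be told apart. The questions put to the table were therefore how low each gene was in each library, which transcripts carried it, and which marker genes of other marrow cells moved beside it.

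The 8 libraries held 19048195 to 20027967 estimated counts, and 15448 to 15895 genes had a count. Of the 12839 genes tested, 34.7% passed edgeR's quasi-likelihood test at a Benjamini-Hochberg adjusted p of 0.05, with 2233 genes higher and 2223 lower in the D libraries. The median log2 fold change of all tested genes was -0.03, and -0.14 when libraries were scaled by their totals alone, where the higher genes made up 31.3% of all calls in place of 50.1%. Whether the 4 libraries of a group stem from separate animals is not stated in the labels. The p-values therefore measure only the spread between these libraries, and that spread may be technical. The labels call the cells bone marrow-derived macrophages. The macrophage markers Csf1r and Adgre1, the receptor for M-CSF and the antigen F4/80, were present at 209 ± 22.5 and 87.3 ± 22.4 CPM in the D libraries and at 162 ± 9.97 and 46.7 ± 6.91 CPM in the M libraries (SD, n = 4 each). The 16 genes of the macrophage list averaged from 0.739 CPM (Mertk) to 8145 CPM (Lyz2) in the D libraries and from 0.723 CPM (C1qa) to 4606 CPM (Lyz2) in the M libraries. The neutrophil gene S100a9 stood at 18448 ± 3759 CPM in the D and 15195 ± 319.7 CPM in the M libraries. The first principal component, with 64.7% of the variance, placed D replicate 1 at -16.0, D replicate 2 at -32.1, D replicate 3 at -54.5 and D replicate 4 at -27.2, and the M libraries at 27.9 to 37.6. The D libraries thus spread widely along it, with replicate 3 farthest from the M libraries.

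Together the 9 genes summed to 24.3, 17.6, 6.07 and 32.5 CPM in D replicates 1 to 4, against 481, 365, 489 and 391 CPM in M replicates 1 to 4. Each of the 9 had each D library below each M library. Over all tested genes 18.4% had that order, and 0.117% of tested genes, 15 in number, were called and at least 16-fold lower by their fitted level. Since the genes were chosen for this difference, nothing is read from these counts. The gap between the groups was wide: the lowest M library stood 7.01 times (Adamts7) to 18.1 times (Lrrc10b) above the highest D library.

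**Figure D1:**
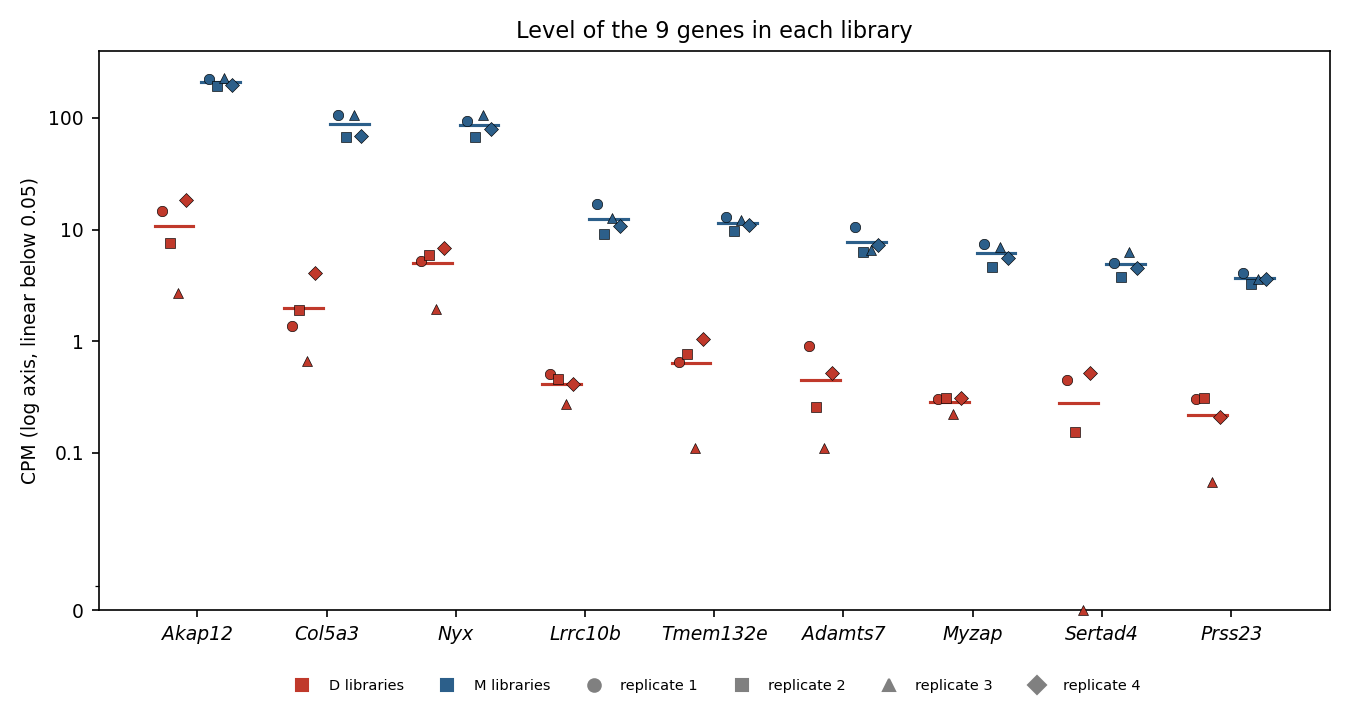
CPM of each of the 9 genes (log axis, linear below 0.05) in the 4 D libraries (red, left) and the 4 M libraries (blue, right), with bars at the group means and a symbol for each replicate number. D replicate 3 (triangle) is the lowest D library for each of the 9 genes, and M replicate 2 (square) the lowest M library.

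Col5a3 (NCBI gene 53867, chromosome 9, 20770050 to 20815117, build GRCm38) encodes the alpha 3 chain of type V collagen, a minor fibrillar collagen that in mice is known from fat, muscle and pancreatic islets. It stood at 1.36, 1.89, 0.662 and 4.06 CPM in D replicates 1 to 4, against 107, 67.6, 106 and 69.3 CPM in M replicates 1 to 4. The M libraries fell into a high pair (1 and 3) and a low pair (2 and 4), and D replicate 4 stood above the other D libraries. The means were 1.99 ± 1.47 CPM in the D and 87.5 ± 22.0 CPM in the M libraries (SD, n = 4 each), a log2 fold change of -5.45 ± 0.41 (SE). That left 2.28% of the M mean in the D libraries, the least of the 9 genes.

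Adamts7 (gene 108153, chromosome 9, 90162904 to 90200102) encodes a secreted metalloprotease that cleaves cartilage oligomeric matrix protein and is best known from blood vessel walls. It stood at 0.906, 0.255, 0.110 and 0.521 CPM in D replicates 1 to 4, against 10.5, 6.35, 6.56 and 7.33 CPM in M replicates 1 to 4. M replicate 1 was set off above the other M libraries, and D replicate 1 above the other D libraries. Its log2 fold change was -4.06 ± 0.38. Prss23 (gene 76453, chromosome 7, 89507783 to 89527187), a secreted serine protease studied in the mouse ovary and in endothelial cells, had the lowest mean CPM of the 9 genes in the D libraries, at 0.302, 0.306, 0.0552 and 0.208 CPM in D replicates 1 to 4, against 4.10, 3.25, 3.61 and 3.61 CPM in M replicates 1 to 4. Its M libraries were close together (coefficient of variation 9.66%), and its log2 fold change was -4.01 ± 0.30.

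Akap12 (gene 83397, chromosome 10, 4266329 to 4359471), also called gravin or SSeCKS, encodes a scaffold that holds protein kinases A and C near the cell membrane. It was the most abundant of the 9, at 14.5, 7.51, 2.70 and 18.5 CPM in D replicates 1 to 4, against 224, 193, 229 and 199 CPM in M replicates 1 to 4. Its D libraries spanned a far wider relative range than its M libraries, with coefficients of variation of 65.3% and 8.48%. The log2 fold change was -4.28 ± 0.46, which left 5.12% of the M mean.

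Myzap (gene 102371, chromosome 9, 71504347 to 71592360) encodes a junction protein of the intercalated discs of heart muscle. It stood at 0.302, 0.306, 0.221 and 0.313 CPM in D replicates 1 to 4, against 7.43, 4.60, 7.01 and 5.52 CPM in M replicates 1 to 4, with a log2 fold change of -4.39 ± 0.25. The D libraries rest on 4 to 6 counts each, so their closeness says little. Tmem132e (gene 270893, chromosome 11, 82388852 to 82447621), a membrane protein linked to hearing in humans, stood at 0.654, 0.766, 0.110 and 1.04 CPM in D replicates 1 to 4, against 12.9, 9.69, 12.3 and 11.0 CPM in M replicates 1 to 4. Its log2 fold change was -4.13 ± 0.32, and D replicate 3 was set off below the other D libraries.

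Nyx (gene 236690, chromosome X, 13461090 to 13492820) encodes nyctalopin, a leucine-rich repeat protein that places the TRPM1 channel in retinal bipolar cells and is mutated in a human form of night blindness. It was measured at 5.23, 5.97, 1.93 and 6.88 CPM in D replicates 1 to 4, against 93.1, 68.1, 105 and 80.1 CPM in M replicates 1 to 4. D replicates 1, 2 and 4 lay close together and D replicate 3 below them, with a log2 fold change over the groups of -4.11 ± 0.31. Lrrc10b (gene 278795, chromosome 19, 10455371 to 10457447) is another leucine-rich repeat gene, of poorly known function. It stood at 0.503, 0.460, 0.276 and 0.417 CPM in D replicates 1 to 4, against 16.9, 9.09, 12.6 and 10.8 CPM in M replicates 1 to 4, a log2 fold change of -4.87 ± 0.26. No D library held more than 10 counts of it. Sertad4 (gene 214791, chromosome 1, 192844469 to 192855752) belongs to a family of small nuclear proteins whose best known member, Sertad1, binds a cyclin-dependent kinase. It reached 0.453, 0.153, 0 and 0.521 CPM in D replicates 1 to 4, against 5.03, 3.75, 6.26 and 4.52 CPM in M replicates 1 to 4, and its log2 fold change was -4.07 ± 0.45. The 0 counts in D replicate 3 allow a level of up to 0.166 CPM there, which covers counting error only.

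Counting error set the limit for the low genes. Over the 4 D libraries together Prss23 had 17 counts, with an exact 95% Poisson interval of 9.90 to 27.2, Myzap and Sertad4 had 22 counts each (13.8 to 33.3), and Lrrc10b had 32 (21.9 to 45.2). The M libraries together held 293, 494, 393 and 993 counts of these genes. The order among D libraries cannot be resolved for them, whereas Akap12 with 840, Nyx with 388 and Col5a3 with 154 counts over the D libraries resolve it better. Reads without molecular identifiers are not independent molecules, so these intervals are too narrow as a measure of error between cultures.

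The choice of the 9 had an edge. Among called genes without overlap between groups and with a mean log2 CPM of at least 1, ordered by fitted log2 fold change, the 9 fill 9 of the first 10 ranks. The gene at rank 3, Irs1, an adaptor of the insulin receptor, is not among them, at 0.273 ± 0.222 CPM in the D and 7.49 ± 2.16 CPM in the M libraries. Just inside the end stood Adamts7 and Prss23, at -4.06 and -4.01. Just outside it stood the tubulin gene Tubb2b, at 2.03 ± 1.68 CPM in the D and 30.7 ± 5.83 CPM in the M libraries (-3.90), and Niban3, at 9.28 ± 3.82 against 132 ± 25.6 CPM (-3.83). The values ran on without a gap at this edge.

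Levels of different genes can be compared per transcript length, in TPM, the authors' length-scaled unit. In the M libraries Akap12 was the most abundant at 59.5 to 71.7 TPM, above 80.5% of tested genes. Col5a3 followed at 21.4 to 34.0 TPM and Nyx at 16.1 to 25.5 TPM, and these neighbours in the order overlapped. Lrrc10b lay below them at 8.58 to 15.4 TPM. Myzap at 3.93 to 6.14 TPM and Tmem132e at 4.19 to 5.34 TPM overlapped each other, as did Prss23 at 3.28 to 3.93 TPM, Adamts7 at 2.48 to 4.03 TPM and Sertad4 at 2.27 to 3.77 TPM. Sertad4 was the lowest, above 18.2% of tested genes, so the 9 genes covered levels from low to fairly high in the cultures of healthy origin. In the D libraries Akap12 was at 0.74 to 5.33 TPM, Nyx at 0.38 to 1.43 TPM and Col5a3 at 0.19 to 1.20 TPM. The other 6 genes did not exceed 0.47 TPM in any D library.

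Promoters of some of the 9 genes are shown as a description, to let their composition be compared. RefSeq promoters of build GRCm38.p6 were held for 7 of the 9 genes, all but Akap12 and Adamts7. Of these, the 4 with the highest M levels are printed, 250 bases upstream of the start, 5′ to 3′ on the gene's strand. Capitals mark matches to any of 7 short motifs searched on both strands.
Col5a3, chr9:20815068-20815317, minus strand: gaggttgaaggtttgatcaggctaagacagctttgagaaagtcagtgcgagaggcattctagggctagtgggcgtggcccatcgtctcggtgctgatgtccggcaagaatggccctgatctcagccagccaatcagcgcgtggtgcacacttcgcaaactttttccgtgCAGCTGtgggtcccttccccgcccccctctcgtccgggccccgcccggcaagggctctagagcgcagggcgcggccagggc
Nyx, chrX:13460840-13461089, plus strand: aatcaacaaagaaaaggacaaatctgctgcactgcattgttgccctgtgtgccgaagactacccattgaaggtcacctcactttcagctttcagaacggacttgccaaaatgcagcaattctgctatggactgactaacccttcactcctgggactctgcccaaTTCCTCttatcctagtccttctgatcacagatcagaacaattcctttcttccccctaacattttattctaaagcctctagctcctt
Lrrc10b, chr19:10457448-10457697, minus strand: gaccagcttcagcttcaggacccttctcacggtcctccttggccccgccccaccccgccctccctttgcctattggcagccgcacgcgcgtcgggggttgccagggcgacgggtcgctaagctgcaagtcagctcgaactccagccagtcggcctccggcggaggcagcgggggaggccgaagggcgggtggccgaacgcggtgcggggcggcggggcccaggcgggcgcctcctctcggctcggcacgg
Myzap, chr9:71592361-71592610, minus strand: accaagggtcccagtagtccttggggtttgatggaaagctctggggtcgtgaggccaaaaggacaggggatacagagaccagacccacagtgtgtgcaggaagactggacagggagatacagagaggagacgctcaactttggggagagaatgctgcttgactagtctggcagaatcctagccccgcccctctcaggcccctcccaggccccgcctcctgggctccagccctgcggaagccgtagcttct
The 4 differed in make-up. Col5a3 had a GC content of 62.8% with 17 CpG dinucleotides, Lrrc10b 74.0% with 29, Myzap 60.0% with 6, and Nyx 44.8% with 2, where the median of 32851 promoters was 52.4% with 6. The motifs were those of Ebf1 (CCCNNGGG), E-box factors (CAGCTG and CAGGTG), PU.1 (GAGGAA), Ets (GGAAGT), Runx (TGTGGT) and Gata factors (AGATAA). Of these, Col5a3 held CAGCTG at position -81 from the start, a motif found in 13.0% of promoters, and Nyx held GAGGAA on the other strand at -86, found in 23.3% of promoters. Lrrc10b and Myzap held none of the 7. The Ebf1 motif was in promoters of Sertad4 and Prss23 and in 11.8% of promoters, but Prss23 has 7 promoters in the table and so more letters to match. No motif was common to the printed promoters. A match is a description of letters and not a bound site.

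The table gives counts per RefSeq transcript, and the 9 genes had 27 of them. Akap12 (NM_031185), Lrrc10b (NM_001111140) and Myzap (NM_001033208) had 1 transcript each. The 6 others had several, and 13 of the 27 transcripts had 0 counts in all 4 D libraries while holding up to 378 estimated counts over the M libraries. How reads are split between near-identical transcripts is an estimate, and several splits moved from library to library within a group.

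Col5a3 shows this most plainly. Its main transcript NM_016919 took 52.6% of the gene's counts in the D libraries and 81.1% in the M libraries, and NM_001317388 was the next transcript. In single libraries NM_016919 was at 0.01, 0.02, 0.01 and 1.20 TPM in D replicates 1 to 4, against 30.0, 15.2, 27.1 and 16.6 TPM in M replicates 1 to 4. NM_001317388 was at 0.40, 0.55, 0.18 and 0 TPM in D replicates 1 to 4, against 2.35, 6.07, 6.75 and 5.23 TPM in M replicates 1 to 4. D replicate 4 therefore put its Col5a3 counts on one transcript and the other D libraries on the other one, whereas both were lower in each D library than in each M library.

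Tmem132e had a similar split within the M libraries. NM_001304439 was at 0.01, 0.07, 0 and 0.35 TPM in D replicates 1 to 4, against 4.30, 3.68, 0.19 and 4.67 TPM in M replicates 1 to 4. XM_006533452, a predicted transcript, was at 0 in the D libraries and at 0.76, 0.38, 4.86 and 0 TPM in M replicates 1 to 4. M replicate 3 thus had most of its Tmem132e on a transcript that the other M libraries hardly used, while the sum per gene ran from 9.69 to 12.9 CPM over the M libraries. Another transcript, XM_006533449, differed least between groups, at 29.8 estimated counts over the D and 48.7 over the M libraries.

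For Sertad4 the estimates put none of the few D counts on its largest M transcript. NM_198247 had 0 estimated counts over the D libraries, against 233 over the M libraries, and NM_001177794 had 22.0 against 147. Nyx was carried by a predicted transcript, XM_030251314, with 302 estimated counts over the D and 4351 over the M libraries. The curated Nyx transcript NM_173415 had 0 against 378. Adamts7 had 2.24 against 263 estimated counts of XM_006510762 and 32.8 against 151 of NM_001311115, so the share of NM_001311115 was 93.6% in the D and 24.5% in the M libraries. Prss23 was mostly XM_030243077, at 86.7% of the gene in the D and 77.1% in the M libraries. With so few D counts, these shares describe the estimates and were not tested as changes in splicing.

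**Figure D2:**
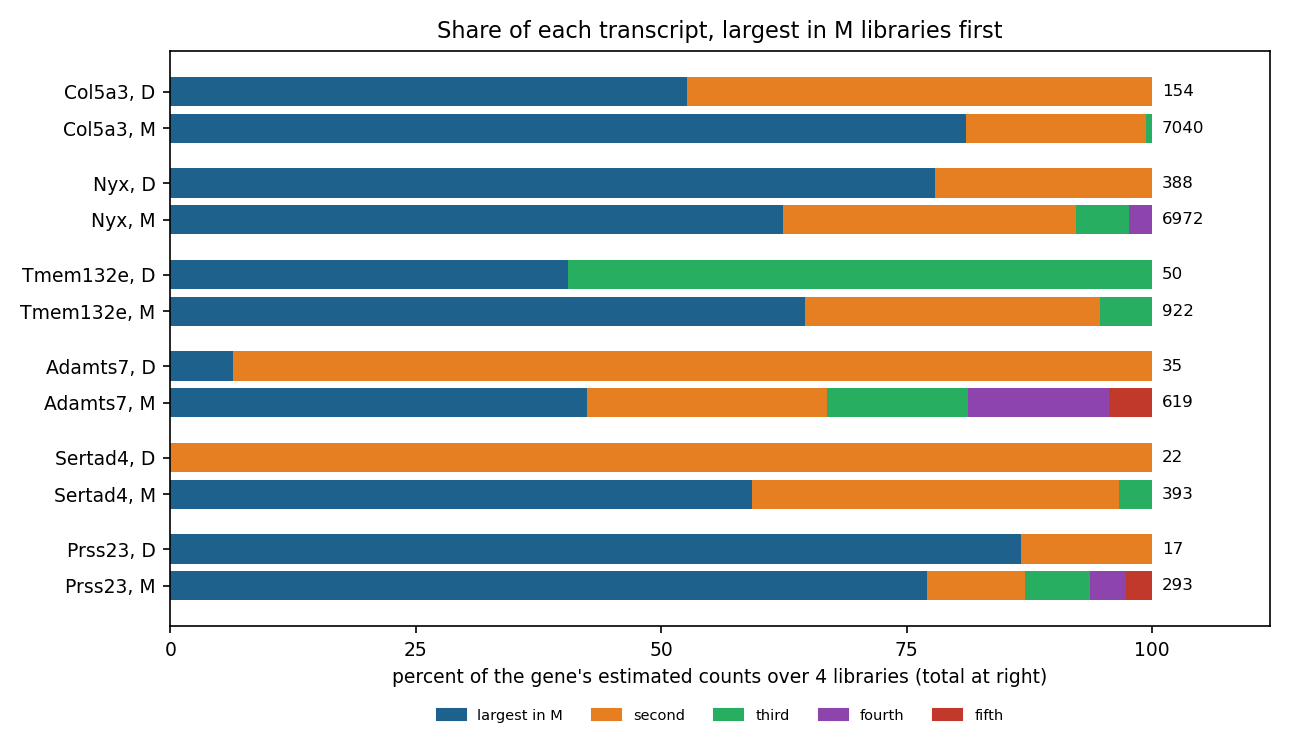
Percent of each gene's estimated counts that fell on each of its transcripts, for the 6 genes with several transcripts, summed over the 4 D libraries (upper bar of each pair) and the 4 M libraries (lower bar), with the summed counts at the right. Sertad4 has none of its largest M transcript in the D libraries, and the Adamts7 share of its largest M transcript is 6.40% in the D against 42.4% in the M libraries.

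The 9 genes ranked the libraries of a group in a similar order. D replicate 3 was the lowest D library for 9 of 9 genes, as for 35.8% of all tested genes and 58.3% of the genes called lower. M replicate 2 was the lowest M library for 9 of 9, as for 26.7% of all tested genes and 33.8% of the genes called lower. Both at once held for 9.37% of all tested genes and 20.0% of the genes called lower. For the scarce genes the D order rests on few counts, such as 4 in D replicate 3 and 6 in each other D library for Myzap. The lowest M library can be unresolved too. Adamts7 had 127 counts in M replicate 2 and 131 in M replicate 3. Prss23 had 65 in M replicate 2 and 72 in each of M replicates 3 and 4. The highest M library was replicate 1 for 6 genes and replicate 3 for 3. Taken as percent of each gene's M mean, the median of the 9 genes was 6.03%, 3.73%, 1.44% and 6.78% in D replicates 1 to 4, and 113%, 78.5%, 108% and 92.4% in M replicates 1 to 4. Genes that share libraries are not independent of each other, so these orders are a description.

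Cd79a, a signalling chain of the B-cell receptor, followed nearly the same order. It stood at 36.1, 36.4, 16.8 and 51.9 CPM in D replicates 1 to 4, against 304, 222, 280 and 230 CPM in M replicates 1 to 4. As percent of its M mean this was 13.9%, 14.1%, 6.47% and 20.0% in the D libraries and 117%, 85.7%, 108% and 88.9% in the M libraries, so D replicate 3 and M replicate 2 were lowest for it too. By their values Col5a3, Tmem132e and Nyx had the D order of Cd79a, shared by 2.57% of tested genes. That order turns on D replicates 1 and 2, which were too close for Cd79a (36.1 and 36.4 CPM) to be ordered. Akap12, the most abundant of the 9, had neither the D nor the M order of Cd79a. Its D replicate 2 stood below D replicate 1, at 7.51 against 14.5 CPM. For Myzap, with 6 counts in each of D replicates 1, 2 and 4, no D order can be given. By their values Col5a3, Lrrc10b, Myzap and Tmem132e had the M order of Cd79a, shared by 5.97%. M replicates 2 and 4 were close for Cd79a (222 and 230 CPM) and for Col5a3 (67.6 and 69.3 CPM). Col5a3 was also close in M replicates 1 and 3 (107 and 106 CPM), and Myzap had 92 to 152 counts per M library. The M order is therefore not well resolved either. By their values Col5a3 and Tmem132e had both orders, with the same limits, and Tmem132e rests on 50 counts over the D libraries.

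Pf4, a chemokine of megakaryocytes and platelets, ordered the M libraries differently. It stood at 33.0, 50.3, 23.7 and 32.2 CPM in D replicates 1 to 4, against 80.0, 86.3, 64.3 and 83.0 CPM in M replicates 1 to 4. M replicate 2, the lowest for the 9 genes, was the highest for Pf4, and M replicate 3 the lowest. None of the 9 genes had the M order of Pf4. That order was found in 3.19% of tested genes, so 0 of 9 is near this share and nothing is read from it. By its values Prss23 had the D order of Pf4, shared by 3.76% of tested genes. It had 6 counts in each of D replicates 1 and 2, so their order is not resolved. In the D libraries Pf4 kept 30.2% to 64.2% of its M mean.

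**Figure D3:**
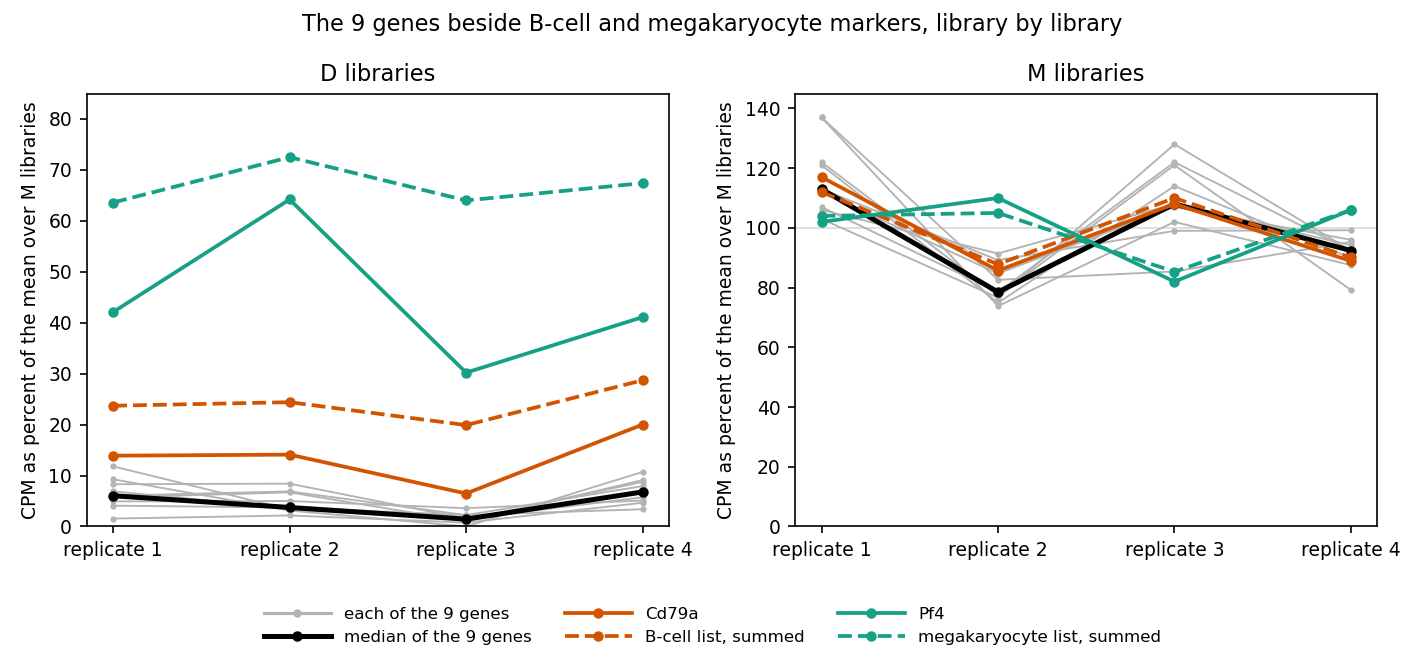
CPM as percent of the mean over the M libraries, by replicate, for the 9 genes (grey, median in black), Cd79a and the summed B-cell list (orange), and Pf4 and the summed megakaryocyte list (green), in the D libraries (left) and the M libraries (right, on a wider scale). Lines join libraries only to help follow a gene. The 9 genes and the B-cell lines dip together at M replicate 2, where the Pf4 line is at its highest. The B-cell sum includes Btk and Cd37, which fell little, and the megakaryocyte sum includes Nfe2, which was higher in the D libraries.

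Most B-cell markers fell. Of 17 markers of the B-cell receptor and of B-cell identity, 14 were lower and 0 higher in the D libraries by edgeR's test, against 17.3% and 17.4% of all genes called in those directions. At an unadjusted p under 0.05 and with DESeq2 the number higher was also 0. The median log2 fold change of the list was -2.87, and its summed level was 508 to 733 CPM in the D and 2240 to 2860 CPM in the M libraries. Cd79a (35.3 ± 14.4 against 259 ± 39.4 CPM, SD, n = 4 each; log2 fold change -2.87, adjusted p = 0.000393), Cd79b (28.7 ± 11.3 against 277 ± 43.5 CPM; -3.27, adjusted p = 0.000229) and the inhibitory receptor Cd72 (18.0 ± 7.91 against 225 ± 55.3 CPM; -3.64, adjusted p = 0.000248) were among them. Fcer2a and Cr2, markers of mature B cells, did not pass, at 2.58 ± 0.64 against 3.61 ± 0.68 CPM and 4.05 ± 1.74 against 4.02 ± 0.70 CPM.

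Among 14 tested genes of pro-B and pre-B cells, 9 were lower and 0 higher, against 17.3% and 17.4% of all genes. Their median log2 fold change was -1.15. DESeq2 and an unadjusted p under 0.05 each gave 11 lower and 0 higher. Rag1, which cuts the antigen receptor genes, was at 11.2 ± 7.02 CPM in the D and 135 ± 18.9 CPM in the M libraries (log2 fold change -3.58, adjusted p = 0.000692), and the transcription factor Bach2 at 17.0 ± 6.89 against 179 ± 25.0 CPM (-3.39, adjusted p = 0.000106). The surrogate light chain genes Vpreb1 and Igll1 did not pass, at 3.31 ± 2.87 against 4.61 ± 1.34 CPM and 2.94 ± 2.80 against 6.25 ± 2.33 CPM. Of 7 plasma cell genes 3 were lower (Irf4, Mzb1 and Sdc1) and 1, the immunoglobulin joining chain Jchain, was higher, at 87.9 ± 55.7 against 3.07 ± 0.63 CPM (log2 fold change 4.84, adjusted p = 0.000852). From its most abundant transcript Irf4 had a log2 fold change of -2.01 and was not called (edgeR adjusted p = 0.164). The summed B-cell list kept 19.9% to 28.7% of its M mean in the D libraries, where the median of the 9 genes kept 1.44% to 6.78%. That sum includes Btk (132.6 ± 1.54 against 154.7 ± 3.66 CPM) and Cd37 (215.5 ± 31.5 against 230.6 ± 26.3 CPM), which kept 85.7% and 93.5% of their M means. Cd79a alone kept 6.47% to 20.0%. The 9 genes were chosen as the largest decreases, so nothing is read from the difference. The part of B-lineage cells in the decrease of the 9 genes was not tested, and no library of sorted cells was analysed here.

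Most megakaryocyte and platelet genes fell too. Of its 15 genes, 13 were lower and 1, the transcription factor Nfe2, was higher, against 17.3% and 17.4% of all genes. The median log2 fold change of the list was -1.17. Its summed level was 538 to 614 CPM in the D and 722 to 894 CPM in the M libraries. The largest gene of that sum was Nfe2 (270 ± 28.6 against 202 ± 4.87 CPM), at 134% of its M mean. The sum therefore fell less than most of its genes. Pf4 (34.8 ± 11.2 against 78.4 ± 9.77 CPM; log2 fold change -1.17, adjusted p = 0.00265) and the platelet tubulin Tubb1 (2.14 ± 0.87 against 15.4 ± 4.32 CPM; -2.83, adjusted p = 0.000209) were among the lower genes. These decreases were smaller than those of the 9 genes, but the 9 were chosen as the largest, so nothing is read from the difference. The part of megakaryocytes in the decrease of the 9 genes was not tested.

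Markers of tissues in which several of the 9 genes are best known were at mixed levels. Among all tested genes 17.3% were called lower and 17.4% higher. Of 14 mesenchymal and fibroblast markers 6 had enough counts to be tested, and 3 of these were lower and 1 higher. The summed level was 54.2 to 60.0 CPM in the D and 52.1 to 58.1 CPM in the M libraries, so it overlapped between groups. That sum was mostly Acta2, which was not called, Col1a1, which was lower, and Thy1, which was higher. The scarcer Col1a2 (0.746 ± 0.350 against 4.17 ± 3.37 CPM, log2 fold change -2.46) and Cxcl12 (0.798 ± 0.424 against 2.11 ± 0.847 CPM, -1.38) were also lower. Their calls ended in 3 and 4 alternatives. Per length, the means of the 14 markers ran from 0.0025 TPM (Pdgfra) to 20.0 TPM (Acta2) in the D libraries and from 0.0225 TPM (Pdgfra) to 15.8 TPM (Acta2) in the M libraries. Col1a1 averaged 4.77 TPM in the D and 7.26 TPM in the M libraries, and Thy1 11.7 and 5.58 TPM, while Col3a1, Dcn, Lum, Pdgfra and Twist1 each averaged at most 0.188 TPM in either group. The part of mesenchymal cells in the level of Col5a3 or Akap12 was not tested. Of 12 endothelial markers 9 were tested, 5 lower and 0 higher (0 higher with DESeq2, 1 at an unadjusted p under 0.05), with a summed level of 68.6 to 90.2 CPM in the D and 102 to 124 CPM in the M libraries. Cdh5, the cadherin of endothelial junctions, was at 0.748 ± 0.440 against 4.07 ± 2.29 CPM (log2 fold change -2.42, adjusted p = 0.00507). It too was lower in the D libraries, and its part in the level of Akap12, Myzap or Prss23 was not tested.

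Markers of several other marrow cells were higher in the D libraries. Over all tested genes 17.4% were called higher and 17.3% lower. Of 16 macrophage genes 11 were higher and 0 lower, of 15 neutrophil genes 10 and 0, of 8 mast cell and basophil genes 7 and 0, and of 12 T and natural killer cell genes 6 and 0. For these 4 lists DESeq2 and an unadjusted p under 0.05 also gave 0 lower. Their summed levels in the D and M libraries were 12900 to 18800 against 10300 to 11400 CPM (macrophage), 45800 to 70600 against 39600 to 41500 CPM (neutrophil), 1060 to 1430 against 545 to 686 CPM (mast cell and basophil) and 123 to 133 against 100 to 116 CPM (T and natural killer cell). Of 11 erythroid genes 1 was lower (2 with the replicate number as a block) and 0 higher, of 9 plasmacytoid dendritic cell genes 5 lower and 1 higher (0 higher with library totals alone), and of 11 stem and progenitor genes 3 lower and 2 higher. The macrophage sum was mostly Lyz2, Mpeg1 and Itgam, and Csf1r and Adgre1 add little to it. Means of the former were 8145, 3828 and 2410 CPM in the D and 4606, 3450 and 1886 CPM in the M libraries. D replicate 3, the lowest D library for the 9 genes, had the highest macrophage and neutrophil sums of the 8 libraries and the lowest erythroid sum, 1820 CPM. The part of these shifts in the values of the 9 genes was not tested.

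**Figure D4:**
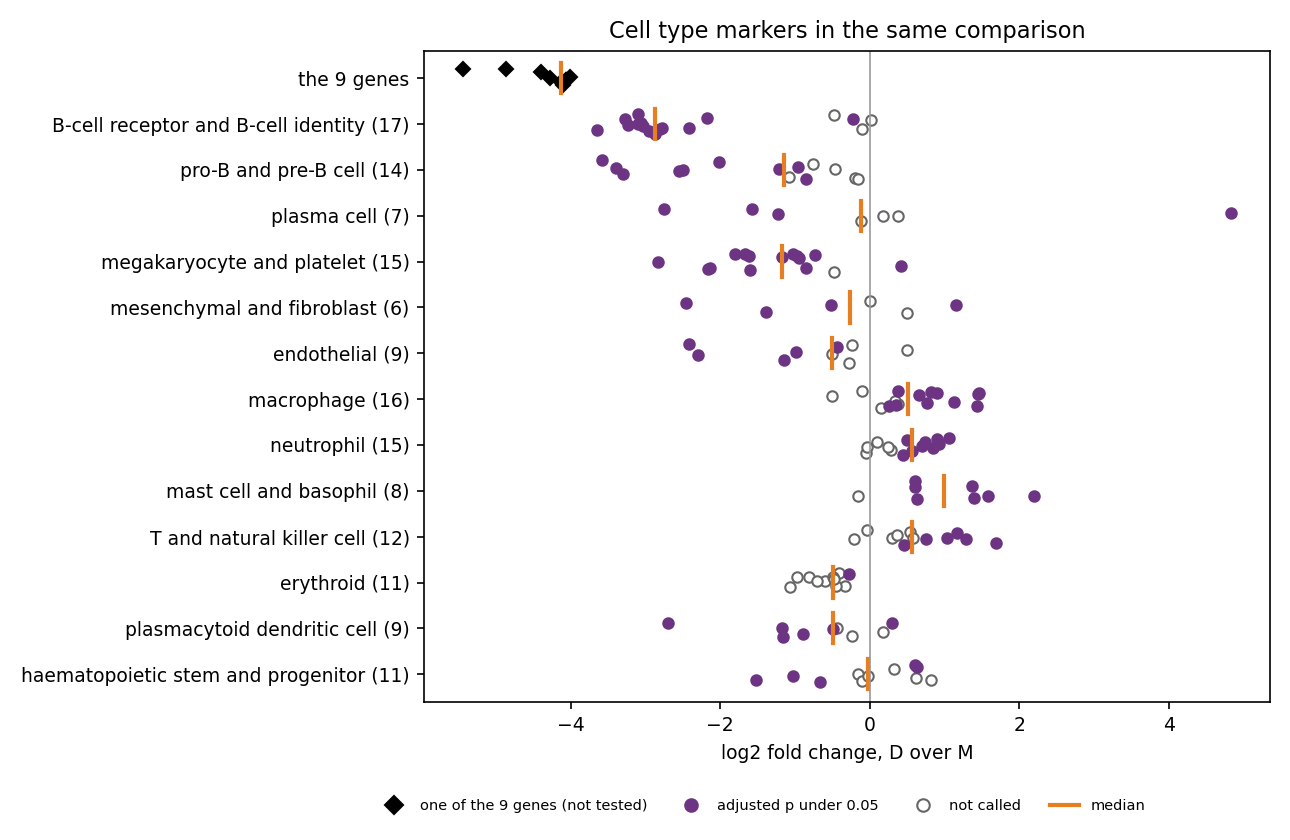
Log2 fold change, D over M, of the 9 genes (black diamonds) and of the tested genes of 13 marker lists (number tested in brackets; filled, adjusted p under 0.05; open, not called; orange bar, median). B-cell genes lie furthest left of the lists, with a median of -2.87, and macrophage, neutrophil, mast cell and T and natural killer cell genes lie mostly right of 0.

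No tested relative of the 9 genes was as much lower as they were. Since the 9 were chosen as the largest decreases, nothing is read from this. Of all tested genes 17.3% were called lower and 17.4% higher. Beside these shares the counts in the short lists of relatives, here and below, are a description. Of 5 tested fibrillar collagen genes 3 were lower and 1 higher. Col5a1, the chain with which type V collagen is chiefly built, was higher, at 2.91 ± 0.90 against 1.17 ± 0.20 CPM (log2 fold change 1.31, adjusted p = 0.00373), while Col27a1 was lower, at 1.75 ± 0.76 against 10.1 ± 1.88 CPM (-2.53, adjusted p = 0.000107). Col5a2, the other partner chain, was too scarce to test, at 0.0516 ± 0.0596 against 0.721 ± 0.634 CPM. Of 17 collagen modifying enzymes 3 were lower (P3h2, Serpinh1 and Bmp1) and 1 higher (Plod3), with a median log2 fold change of -0.12. The share lower, 17.6%, is near that of all tested genes, so nothing is read from it. The call of Plod3 ended in 9 alternatives and that of Bmp1 in 5, and with the replicate number as a block 2 of these enzymes were higher. With library totals alone 0 of them were higher. When each gene was represented by its most abundant transcript, Col27a1 and Serpinh1 had log2 fold changes of -2.28 and -1.56 and were not called (edgeR adjusted p = 0.133 and 0.139).

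Of 7 tested ADAMTS genes 1 was lower, Adamts6, at 3.35 ± 0.51 against 8.57 ± 0.80 CPM (log2 fold change -1.35, adjusted p = 0.000106), and 0 were higher with edgeR, with DESeq2 or at an unadjusted p under 0.05. With the replicate number as a block 2 ADAMTS genes were lower, and from its most abundant transcript Adamts6 was at -1.64 and not called (edgeR adjusted p = 0.0729). Of 16 A-kinase anchors and protein kinase A subunits 4 were higher and 4 lower, with a median of -0.04. Akap5 was the lowest of them, at 0.754 ± 0.086 against 2.24 ± 0.62 CPM (log2 fold change -1.56, adjusted p = 0.0013), and Prkar1a, a regulatory subunit of the kinase, was at 382 ± 12.6 against 329 ± 11.6 CPM (0.22, adjusted p = 0.0222). With library totals alone 2 of them were higher. From its most abundant transcript Akap5 had a log2 fold change of -2.66 and was not called (edgeR adjusted p = 0.0726).

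None of 4 tested SERTA genes passed edgeR's test or DESeq2's in either direction, and 1 was higher at an unadjusted p under 0.05. Sertad1 stood at 28.0 ± 0.79 CPM in the D and 28.3 ± 1.00 CPM in the M libraries. In the TMEM132 family Tmem132a was higher, at 8.81 ± 2.36 against 5.57 ± 0.71 CPM (log2 fold change 0.66, adjusted p = 0.0212), and Tmem132b did not pass. The call of Tmem132a ended in 4 alternatives, 3 of them leaving out a single library (D replicate 2, or M replicate 1, or M replicate 2). Among 4 tested partners of nyctalopin none passed edgeR's or DESeq2's test, with 1 lower at an unadjusted p under 0.05, and the channel gene Trpm1 averaged 0.115 against 0.0873 CPM. Per length, Trpm1 averaged 0.050 TPM in the M libraries, where Nyx averaged 20.5 TPM. Of 2 tested small leucine-rich proteoglycans, the family of Nyx, Bgn was lower, at 0.244 ± 0.177 against 0.935 ± 0.436 CPM (log2 fold change -1.89, adjusted p = 0.0135). Of 7 tested intercalated disc and junction genes Dsp, desmoplakin, was higher at 2.76 ± 1.44 against 0.957 ± 0.321 CPM (log2 fold change 1.52, adjusted p = 0.0103) and Jup, plakoglobin, lower at 5.89 ± 0.62 against 8.46 ± 0.55 CPM (-0.52, adjusted p = 0.00635). From its most abundant transcript Dsp was at 1.22 and not called (edgeR adjusted p = 0.181).

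The chromosomal neighbours of the 9 genes, a set chosen after the data were seen, were called about as often as other genes. Of the 18 nearest tested genes, 1 on each side, 4 were higher and 2 lower, 33.3% called against 34.7% of all genes, with a median log2 fold change of -0.04. Polr2m, 18364 bases from Myzap, stood at 92.4 ± 11.1 CPM in the D and 109 ± 2.50 CPM in the M libraries and did not pass (adjusted p = 0.0502). Tbc1d2b, 1945 bases from Adamts7, was higher, at 157 ± 17.9 against 107 ± 3.89 CPM (log2 fold change 0.56, adjusted p = 0.000836). Syt14, 26901 bases from Sertad4, was lower, at 0.970 ± 0.380 against 2.00 ± 0.248 CPM (-1.04, adjusted p = 0.0130). Whether the counting used strand was not given in the sources used here, so reads of the annotated noncoding genes that overlap Akap12, Nyx and Sertad4 cannot be told apart from theirs.

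**Figure D5:**
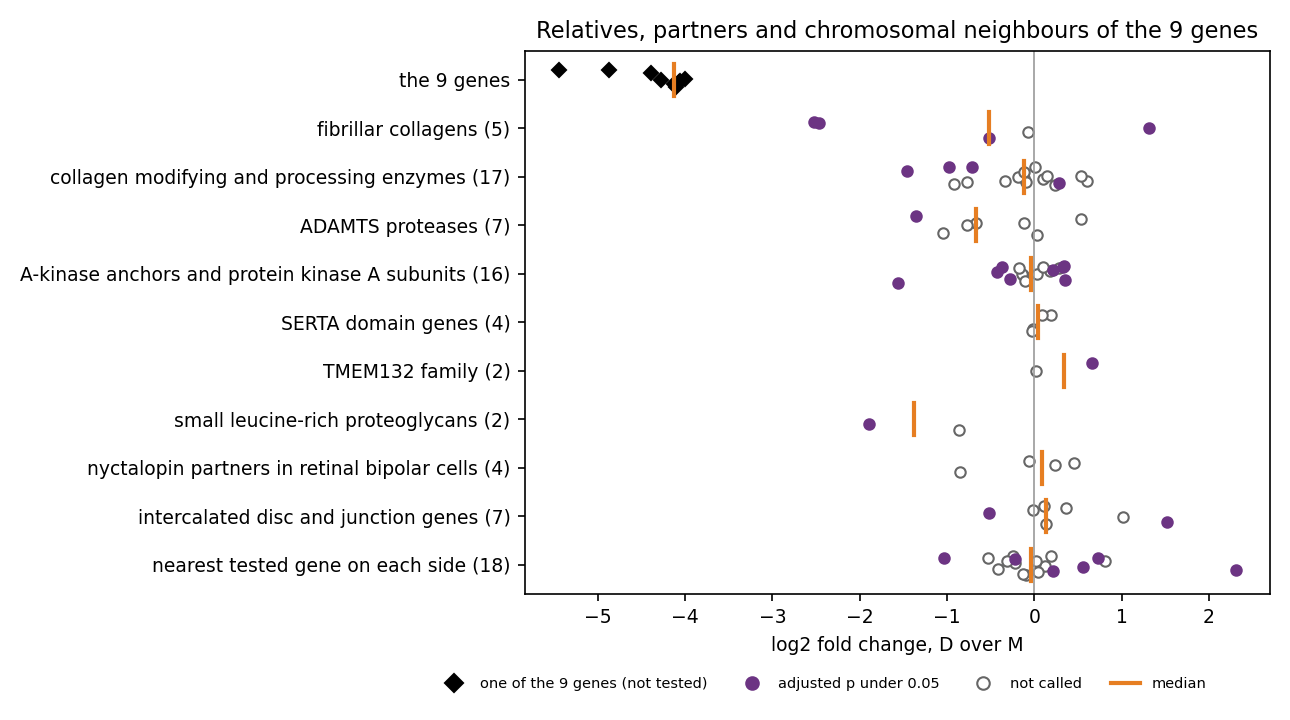
Log2 fold change, D over M, of the 9 genes (black diamonds), of tested genes from 9 lists of relatives and partners, and of the nearest tested gene on each side of each of the 9 genes (filled, adjusted p under 0.05; open, not called; orange bar, median). List medians run from -1.38 (small leucine-rich proteoglycans) to 0.34 (TMEM132 family). No tested relative reaches the values of the 9 genes, which were chosen as the largest decreases. Relatives too scarce to test are not shown.

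The genes whose profile was most like the median profile of the 9 were sought over the 8 libraries, by the root mean square difference in log2(CPM + 0.5) relative to each gene's M mean, among 12304 other genes. The closest were Bach2 (difference 0.127), Chst3 (0.161), Dtx1 (0.188), Cd79b (0.209), Sbk1 (0.239), Pou2af1 (0.249), Lynx1 (0.262), Irs1 (0.264), Nuak1 (0.269) and Cd72 (0.281). Cd79a ranked 21 and Pf4 ranked 285. Bach2, Cd79b, Pou2af1 and Cd72 are also on the B-cell lists. The size of the decrease dominates this measure, and it depended on the pseudocount, since with 0.1 and with 2 in place of 0.5 only 3 and 0 of the 10 genes were the same. With 0.1 the B-cell list genes among the 10 closest were Rag1 and Cd72. With 2 no gene of those lists was among them.

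With each profile taken over the D libraries alone, relative to its own D mean, the closest genes were Slc12a3 (0.0307), Gbp8 (0.0440), Ablim1 (0.0511), St6gal1 (0.0572), Pls1 (0.0636), Plxna4 (0.0657), Nhlrc1 (0.0671), Spdya (0.0676), Tent5c (0.0690) and Gbp4 (0.0694). Cd79a ranked 553 and Pf4 ranked 4911 of 12304, but 13 and 1625 with a pseudocount of 0.1, and 12002 and 11267 with 2. Slc12a3, Ablim1, St6gal1, Pls1 and Plxna4 were lower in the D libraries by edgeR's test, with log2 fold changes of -3.24, -1.64, -2.20, -1.53 and -1.93. From its most abundant transcript Pls1 was at -2.26 and not called (edgeR adjusted p = 0.235). Gbp8, Nhlrc1, Spdya, Tent5c and Gbp4 did not pass, with log2 fold changes from -0.27 to -0.03. Since 6 of the 9 genes averaged under 1 CPM in the D libraries, a pseudocount of 0.5 flattens their D profiles, so these ranks depend on it. Likeness over 4 libraries is weak, and 1 and 0 of these 10 genes were the same with pseudocounts of 0.1 and 2.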

How the data were processed

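RNA of 8 marrow cultures, 4 D and 4 M, was measured by RNA-seq. Per the labels' design text, mRNA was captured with oligo(dT). The same text gives SOAPnuke 1.5.6 as the read filter and HISTA2 2.1.0, spelled so, as the aligner to mm10. The quantifier, the annotation release and the use of strand were not given in the sources used here. Per the file headers, the deposited values are estimated counts for each RefSeq transcript without normalization, of which 37.3% to 40.8% per library were exactly whole. TPM values, scaled by transcript length, were also deposited by the authors, per the file headers. A further 24 columns were not used.

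The 60072 transcripts belonged to 17890 genes, 17836 of them with a symbol in RefSeq's table of GRCm38. Each gene's estimated counts were added up and then rounded. Genes were filtered with edgeR's filterByExpr (minimum count 10, minimum total 15), scaled with TMM (factors 0.913 to 1.005 for D libraries, 1.03 to 1.05 for M libraries) and tested with edgeR 4.0.16's quasi-likelihood test on group alone, robust, with Benjamini-Hochberg adjustment over all 12839 genes and a threshold of 0.05 (R 4.3.3, limma 3.58.1). CPM was computed with these scaled library sizes. Errors are SDs over 4 libraries, or the SE of the fitted log2 fold change. Within a group, pairs of libraries had chi-square values per gene of 6.49 to 67.0, above sampling noise, and each library was counted as 1 replicate. Tested on simulated data for D against M over 12839 genes, the fit recovered 50 of 50 genes changed 4-fold, 47 of 50 changed 2-fold, 45 of 50 changed 0.5-fold and 49 of 50 changed 0.25-fold, and called 8 of 12539 unchanged genes.

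The 9 genes and all lists were chosen with earlier results of these data known. Besides the 9 genes, the rule for named genes covers Irs1, Cd79a, Pf4, up to 4 called genes of lowest p per list, the ranks beside the end of the choice, and the 10 nearest profiles over all and over the D libraries. Genes outside that rule were named after their values were seen. These are the list genes Btk, Cd37, Rag1, Vpreb1, Igll1, Fcer2a, Cr2, Tubb1, Nfe2, Csf1r, Adgre1, Mertk, Mpeg1, Itgam, S100a9, Acta2, Col3a1, Dcn, Lum, Pdgfra and Twist1, the relatives Col5a2, Prkar1a, Sertad1, Tmem132b and Trpm1, and the neighbours Polr2m, Tbc1d2b and Syt14. Same-numbered D and M libraries deviated together, with correlations of 0.115, 0.131, 0.119 and 0.182, against -0.178 to 0.0735 for other pairs, so by the rule that each of at least 3 pairs exceeds 0.1 the numbers were taken to pair the libraries. The labels do not say what a number stands for. Alternatives were DESeq2 1.42.0's size factors and test, other filters, the replicate block, library totals, the most abundant transcript, each library left out and, chosen after the data were seen, D replicates 1 and 3 left out together.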

Additional observations from a re-analysis of the deposited data

Results flagged for a closer look

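Each of the 94 named genes was checked in each group for a library set apart from the other 3 by Dixon's 95% critical value. Of 188 groups 14 were set apart, where chance gives about 1 in 20. Among the 9 genes this happened once: Myzap was at 0.221 CPM in D replicate 3, against 0.302 to 0.313 CPM in the other D libraries, with 4 to 6 counts in each.

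D replicate 3 was also apart for 4 other genes. It was low for Mzb1 (5.79 CPM, the other D libraries 7.45 to 7.66), Sdc1 (7.83 CPM, others 11.4 to 11.9) and Tcf4 (33.8 CPM, others 43.6 to 44.3), genes of plasma cells and of plasmacytoid dendritic cells. It was high for Dsp (4.91 CPM, others 1.91 to 2.14). D replicate 1 was high for Gata2, a transcription factor of mast cells and progenitors (106 CPM, others 70.2 to 74.7).

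In the M libraries, replicate 3 was low for the platelet receptor genes Clec1b (10.4 CPM, the other M libraries 16.6 to 17.0) and Gp1ba (19.5 CPM, others 24.2 to 25.1) and for Pls1 (3.76 CPM, others 4.95 to 5.08). M replicate 1 was high for the neutrophil granule gene Ngp (5220 CPM, others 4170 to 4340) and for Col5a1 (1.47 CPM, others 1.05 to 1.10), and low for Tcf4 (50.8 CPM, others 59.9 to 61.5). M replicate 2 was low for Lcn2 (1140 CPM, others 1280 to 1310), and M replicate 4 was high for Jup (9.28 CPM, others 8.06 to 8.26).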

How the results depend on the processing

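The log2 fold changes of the 9 genes kept their sign in each alternative run, from -6.05 to -4.86 for Col5a3 and from -4.80 to -3.63 for Tmem132e. The lowest, -8.85 for Sertad4, came from its most abundant transcript, which is at 0 in the D libraries, so it depends on the prior count and is no bound. Over all genes, 1088 were higher and 964 lower from the most abundant transcripts, and 3346 were lower with library totals. Leaving out 1 library gave 1710 to 2865 higher and 1583 to 2504 lower. With the replicate number as a block 2412 were higher and 2403 lower, and the block moved 3 list counts: erythroid 2 lower, collagen enzymes 2 higher and ADAMTS 2 lower. The block changed no other call of a named gene and moved no other list count by over 1.5 times.

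Short lists moved by 1 to 4 genes elsewhere, and the cause was not tested. DESeq2's test gave plasma cell 2 higher, erythroid 2 lower, collagen enzymes 2 higher and junction genes 3 higher. Library totals gave plasmacytoid dendritic cell 0 higher, collagen enzymes 0 higher and A-kinase 2 higher. No filter gave plasmacytoid dendritic cell 3 lower and ADAMTS 1 higher and 2 lower. A minimum count of 50, which tests fewer genes, gave mesenchymal 1 lower, endothelial 3 lower, collagen enzymes and small proteoglycans 0 lower, and fibrillar collagens and junction genes 0 higher. The most abundant transcript gave endothelial 3 lower, erythroid 0 lower, plasmacytoid dendritic cell 1 lower, progenitor 1 higher and 1 lower, fibrillar collagens 1 lower, collagen enzymes 0 higher and 1 lower, ADAMTS 0 lower, A-kinase 1 higher and 2 lower, TMEM132 0 higher, small proteoglycans 0 lower and junction genes 0 higher. Without D replicates 1 and 3, chosen after the data were seen, mesenchymal had 1 lower, T and natural killer cell 1 lower, erythroid 2 lower, nyctalopin partners 1 lower, SERTA 1 higher, junction genes 2 higher, and plasmacytoid dendritic cell and collagen enzymes 0 higher.

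Leaving out 1 library gave 1 to 2 higher and 1 to 3 lower mesenchymal genes (1 lower without M replicate 2), 0 to 1 higher endothelial, 0 to 1 lower mast cell, 0 to 4 lower erythroid (4 without D replicate 1), 0 to 1 higher and 3 to 5 lower plasmacytoid dendritic cell, 0 to 3 higher collagen enzyme (3 without D replicate 1), 0 to 1 higher and 1 to 2 lower ADAMTS, 2 to 5 higher A-kinase, 0 to 1 higher SERTA, 0 to 1 higher TMEM132, 0 to 1 lower nyctalopin partner and 1 to 3 higher junction genes (3 without D replicate 1). Directions turned for 1 called gene, the progenitor gene Hlf, and for 5 that did not pass. From its most abundant transcript Hlf was at a log2 fold change of -0.057 in place of 0.63, and Tent5c at 0.14. Without D replicates 1 and 3 Gbp8 was at 0.19, Nhlrc1 at 0.18, Spdya at 0.035, Tent5c at 0.085 and Gbp4 at 0.15. Leaving out 1 library gave -0.18 to 0.16 for Gbp8, -0.22 to 0.14 for Nhlrc1, -0.22 to 0.092 for Tent5c and -0.22 to 0.077 for Gbp4, with the highest value without D replicate 3 in each. The D counts of the scarce genes, 17 to 32 in all, limit what can be said of single D libraries.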
